A study of Mus musculus with 6 samples.

Results

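Lipid-associated macrophages are the phagocytes that gather around stressed or dying fat cells and take up their lipid. Here 10 genes used to mark these cells were followed in whole subcutaneous white fat: Gpnmb, Trem2, Mmp12, Spp1, Atp6v0d2, Cd9, Itgax, Lgals3, Cd63 and Tyrobp. All 10 were found by symbol in the count table, once each, among 40428 features. The mice were C57BL/6J, fed chow and housed at room temperature. No age is given. The 3 control mice were flox/flox for Nampt, the enzyme of NAD salvage. In the 3 ANKO mice (adipocyte-specific Nampt knockout) an adiponectin-Cre transgene was used to delete Nampt in fat cells, so macrophages were not the cells targeted. Whether the controls carried the transgene is not stated. Libraries held 19748962 to 23860596 counts.

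The marker set joins several functions. TREM2 is a surface receptor for lipids and lipoproteins, and it signals through TYROBP (DAP12), an adaptor whose phosphorylated tyrosines recruit the kinase SYK. In obese fat TREM2 is known to be needed for macrophages to take on the lipid-associated state. GPNMB and CD63 are membrane proteins of lysosomes and related organelles, ATP6V0D2 is a subunit of the proton pump that acidifies them, and CD9 is, like CD63, a tetraspanin. LGALS3 (galectin-3) binds sugars on cell surfaces and damaged lysosomes, ITGAX is the integrin CD11c, and SPP1 (osteopontin) and MMP12 (macrophage metalloelastase) are secreted. CD9, CD63 and LGALS3 are also made by many cells that are not macrophages.

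The 10 genes were chosen by their measured levels in this same comparison, ANKO against control. Their values in it are therefore a description. Where they stood in the fit over all genes is given as part of that description and supports nothing about them. Nampt itself stood at 83.6, 93.0 and 87.0 CPM (counts scaled to library size, with TMM factors) in the controls and at 48.6, 50.2 and 47.0 CPM in ANKO, lower in every ANKO library than in any control. The fitted log2 fold change of Nampt was -0.85 (SE 0.0776, edgeR quasi-likelihood adjusted p = 0.00416). Whole tissue was sequenced, so more macrophages and more RNA of a gene per macrophage cannot be told apart here. Nothing in the labels says more about how the mice were related, and the spread is that between 3 mice of a group.

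As a group the marker genes stood higher in ANKO fat. All 10 had a positive log2 fold change, from 0.16 for Cd9 to 4.35 for Mmp12, with a median of 1.64 against 0.0007 over the 19272 features tested. In 8 of the 10 all ANKO libraries lay above all control libraries, as did 9.19% of the features tested, and Cd9 and Itgax overlapped. None lay wholly below the controls, as 10.2% of the features did. In the fit over all genes (edgeR quasi-likelihood, Benjamini-Hochberg adjusted p under 0.05) 6 of the 10 were past the threshold, all higher and none lower, where 0.488% of the features tested were higher, 1.1% lower and 1.59% past it in either direction. These were Gpnmb, Trem2, Mmp12, Spp1, Atp6v0d2 and Lgals3. Because the comparison chose the genes, nothing is read from that count. Nearest to the threshold lay Spp1 inside it (edgeR adjusted p = 0.0499) and Tyrobp outside it (edgeR adjusted p = 0.105).

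That count of 6 moved when a mouse was left out. It was 0 without control 1, without control 2 or without ANKO 2, and 1 without control 3 or without ANKO 3, while 8, 8, 7, 9 and 8 members had an unadjusted p under 0.05 in those edgeR fits. It was 5 without ANKO 1. By limma-voom it was 0, with 8 members at an unadjusted p under 0.05, and by DESeq2 it was 7. Among all features, the 6 leave-one-out fits, in the order named, called 35, 26, 41, 35, 20 and 107 higher of 19762 to 20051 tested. Of 19272 tested, limma-voom called 62 higher and DESeq2 388. The share of all features at an unadjusted p under 0.05 is not given here, so nothing is read from the unadjusted counts. The median log2 fold change of the 10 stayed between 1.49 and 1.79 in these fits.

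**Figure D1:**
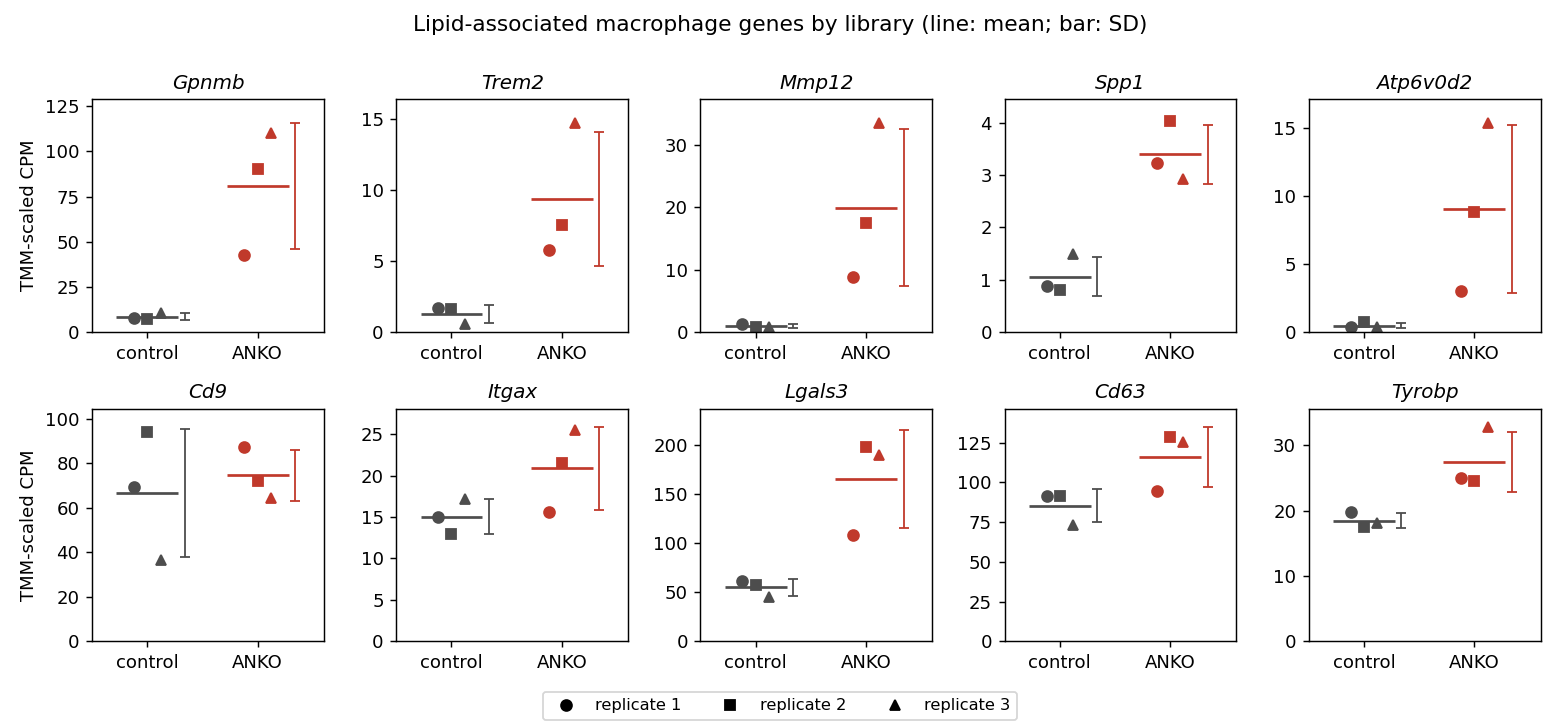
TMM-scaled CPM (y axis of each panel, from 0) of the 10 genes in the 3 control and 3 ANKO libraries. Points are libraries with 1 symbol per replicate number, lines are group means and bars are SD. For Gpnmb, Trem2, Mmp12, Spp1, Atp6v0d2 and Lgals3 the ANKO libraries sit well above the controls, whereas Cd9 and Itgax overlap.

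The promoters of genes that stood higher together are shown to let their letters be compared. RefSeq (build GRCm38.p6) gave 10 promoter windows for 8 of the 10 genes, and Tyrobp and Atp6v0d2 had no entry. In the 250 bases before each start site, 5 motifs were searched on both strands: TGANTCA (AP-1), CACGTG (E-box, bound by MiT/TFE factors), CATGTG (M-box type), GAGGAAG (core of the PU.1 site, the master factor of macrophages) and TATAAA. Capitals mark matches, in either orientation. The Trem2 window lies at chr17:48346151-48346400, plus strand, and that of Spp1 at chr5:104434861-104435110, plus strand. Mmp12 is shown at the second of its 2 starts, chr9:7347124-7347373, plus strand, and Gpnmb at chr6:49036268-49036517, plus strand. None of these 4 windows overlaps an annotated exon.
Trem2: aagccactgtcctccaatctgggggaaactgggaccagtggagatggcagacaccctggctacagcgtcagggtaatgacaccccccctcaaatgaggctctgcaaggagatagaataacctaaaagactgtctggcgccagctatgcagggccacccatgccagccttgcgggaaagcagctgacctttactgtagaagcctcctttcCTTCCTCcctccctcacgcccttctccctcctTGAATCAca
Spp1: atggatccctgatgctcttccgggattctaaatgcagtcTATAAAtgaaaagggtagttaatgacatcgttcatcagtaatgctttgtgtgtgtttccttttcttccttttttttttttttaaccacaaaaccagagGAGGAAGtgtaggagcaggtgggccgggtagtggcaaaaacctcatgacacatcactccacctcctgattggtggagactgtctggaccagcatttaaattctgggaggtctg
Mmp12: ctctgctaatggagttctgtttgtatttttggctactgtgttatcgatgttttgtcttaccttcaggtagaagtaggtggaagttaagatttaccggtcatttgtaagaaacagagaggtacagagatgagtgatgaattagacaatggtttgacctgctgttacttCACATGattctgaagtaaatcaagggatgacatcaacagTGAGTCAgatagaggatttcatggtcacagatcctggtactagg
Gpnmb: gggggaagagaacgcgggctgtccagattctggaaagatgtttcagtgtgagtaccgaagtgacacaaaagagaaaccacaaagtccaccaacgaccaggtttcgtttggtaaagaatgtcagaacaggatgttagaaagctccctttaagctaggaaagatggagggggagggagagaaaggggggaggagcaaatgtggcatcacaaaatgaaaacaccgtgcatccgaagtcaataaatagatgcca

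The Trem2 window held an AP-1 match 9 to 3 bases before the start and a PU.1 core match 41 to 35 bases before it. Spp1 held a PU.1 core match 113 to 107 bases and a TATAAA match 211 to 206 bases before its start. Mmp12 held an AP-1 match 44 to 38 bases and an M-box type match 83 to 78 bases before this start, and a PU.1 core match 87 to 81 bases before its other start. No motif matched in the Gpnmb window or that of Lgals3. Of the genes that differed little, Itgax held AP-1, Cd63 PU.1 core and Cd9 the M-box type. Over the 8 genes, 4 had a PU.1 core match, 3 AP-1, 2 the M-box type, 1 TATAAA and none CACGTG. Counted per window, these were 4, 3, 2, 1 and 0 of the 10 windows. Over all 32851 windows of the same length 10.6% held the PU.1 core, 6.75% AP-1, 12.3% the M-box type, 12.4% TATAAA and 6.02% CACGTG. A match is a run of letters and not a bound site.

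In the GENCODE M21 annotation of GRCm38 the genes lie on 8 chromosomes. Gpnmb spans chromosome 6, 49036546 to 49070929, plus strand, and Trem2 chromosome 17, 48346401 to 48354147, plus strand. Mmp12 spans chromosome 9, 7344381 to 7369499, plus strand, and Spp1 chromosome 5, 104435118 to 104441050, plus strand. Atp6v0d2 spans chromosome 4, 19876841 to 19922605, minus strand, and Lgals3 chromosome 14, 47367751 to 47386160, plus strand. Tyrobp (30413760 to 30417585) and Itgax (128129547 to 128150657) are both on chromosome 7, and Cd9 (125460266 to 125494791, minus strand) shares chromosome 6 with Gpnmb. Cd63 spans chromosome 10, 128900989 to 128912822, plus strand. Exons of Mmp12 overlap 157 bases of Mmp1b, which had 0 counts in every library, and those of Cd9 overlap 218 bases of Gm26728, which had 1 to 17 counts, both on the opposite strand.

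The receptor and its adaptor differed between groups by unequal amounts. Trem2 stood at 1.66, 1.61 and 0.567 CPM in the controls and at 5.80, 7.54 and 14.7 CPM in ANKO. The lowest ANKO library was thus above the highest control, and the fitted log2 fold change was 2.85 (SE 0.497), or 7.22-fold. The control values rest on few reads, with raw counts of 38, 32 and 11. The exact 95% Poisson interval of the 11 counts ran from 5.49 to 19.7 and did not reach the other controls' counts, an interval that covers counting error only. Tyrobp stood at 19.8, 17.5 and 18.1 CPM in the controls and at 25.04, 24.6 and 32.8 CPM in ANKO. Its groups did not overlap, but the log2 fold change was 0.57 (SE 0.138), or 1.49-fold. TYROBP serves many receptors of myeloid and natural killer cells besides TREM2.

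The genes of the lysosome had log2 fold changes from 0.44 to 4.25. Gpnmb, a glycoprotein of lipid-laden macrophages, stood at 7.58, 7.16 and 10.6 CPM in the controls. In ANKO it stood at 42.6, 90.4 and 110.5 CPM, which is 5.05, 10.7 and 13.1 times the control mean. Every ANKO library was far above every control, and the log2 fold change was 3.27 (SE 0.409). Atp6v0d2, the d2 subunit that osteoclasts and some macrophages use in the proton pump, was barely detected in the controls, with 8, 14 and 7 counts (0.350, 0.706 and 0.361 CPM). In ANKO it had 72, 203 and 331 counts (3.03, 8.79 and 15.4 CPM), the highest 5.08 times the lowest. The log2 fold change was 4.25 (SE 0.691), the second largest of the 10. Cd63 differed little, at 91.3, 91.4 and 73.5 CPM in the controls and 94.4, 128.6 and 125.3 CPM in ANKO. ANKO 1 lay only just above the highest control, and the log2 fold change was 0.44 (SE 0.141). A pseudogene, Cd63-ps, is counted as a feature of its own with 89 to 261 counts, against 1426 to 2969 for Cd63, and reads alike in both cannot be placed with certainty.

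RNA of Mmp12 and Spp1, whose proteins are secreted, was rare in control fat. Mmp12, which degrades elastin, stood at 1.31, 0.857 and 0.721 CPM in the controls and at 8.87, 17.5 and 33.6 CPM in ANKO. All ANKO libraries were at least several times the highest control, and the fitted log2 fold change of 4.35 (SE 0.585, 20.4-fold) was the largest of the 10. The ANKO values themselves differed 3.78-fold from lowest to highest. Spp1, the ligand of several integrins and of CD44, stood at 0.876, 0.806 and 1.49 CPM in the controls and at 3.24, 4.03 and 2.93 CPM in ANKO. The groups were separate, with a log2 fold change of 1.68 (SE 0.322), but the raw counts were small, 16 to 29 in the controls and 63 to 93 in ANKO. An annotated transcript on the same strand, Gm42793, shares 309 bases of exon with Spp1, and reads from there could belong to either.

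Lgals3 was the most abundant gene with a large difference. It stood at 61.8, 57.4 and 45.6 CPM in the controls and at 108.4, 197.7 and 190.3 CPM in ANKO. ANKO 1 was 1.97 times the control mean and ANKO 2 and ANKO 3 were 3.60 and 3.46 times, with a log2 fold change of 1.59 (SE 0.249).

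Itgax and Cd9 were the members whose groups overlapped. Itgax stood at 14.98, 12.95 and 17.2 CPM in the controls and 15.6, 21.6 and 25.5 CPM in ANKO, so ANKO 1 lay among the controls (log2 fold change 0.47, SE 0.195). CD11c also marks dendritic cells, and none of 10 dendritic cell genes was past the threshold over all genes by edgeR, limma-voom or DESeq2, with 0 at an unadjusted p under 0.05 in edgeR and a median log2 fold change of -0.12. Cd9 stood at 69.4, 94.0 and 36.4 CPM in the controls and 87.1, 72.2 and 64.5 CPM in ANKO. Control 2 was the highest and control 3 the lowest of all 6 libraries (log2 fold change 0.16, SE 0.348), and without control 3 the sign turned to -0.12. Some markers of mammary and skin epithelium had their extremes in the same libraries. Of 10 tested, 9 were lowest in control 3 and 5 highest in control 2 (Krt8, Krt18, Krt19, Epcam and Cdh1), while Krt5, Krt14 and Krt10 were highest in ANKO 2 and Csn3 and Elf5 in ANKO 1. The summed level of 12 such markers was 1887 CPM in control 2 and 265 CPM in control 3, against 799 to 1244 CPM in the other 4 libraries, and Krt8, a keratin of luminal epithelium, was 506 CPM in control 2 and 44.8 CPM in control 3. The part of epithelium in the Cd9 values was not tested.

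Most of the 10 genes shared their lowest ANKO library. Of the 10 genes, 7 were lowest in ANKO 1, and 6 were highest in ANKO 3, 3 in ANKO 2 and 1 in ANKO 1. The SD was larger in ANKO than in controls for 9 of 10 genes, and the coefficient of variation for 8. That coefficient reached 68.2% for Atp6v0d2 and 62.7% for Mmp12 in ANKO. How many of all features did the same is not given here, so nothing is read from these counts. Over the 6 libraries, Mmp12 and Lgals3 each had r = 0.99 with the mean standardised level of the other 9, Atp6v0d2 0.98, Trem2 0.97 and Gpnmb 0.96, while Cd9 had r = 0.20. With each group's mean removed, so that only differences between mice of a group remained, these were 0.95, 0.90, 0.87, 0.67 and 0.73, and -0.24 for Cd9. Spp1 stood apart by this measure, with 0.81 before and -0.39 after removal. These correlations describe 6 libraries that the genes share, and carry no test.

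Muscle RNA also differed between the ANKO libraries, and its part in the rank was not tested. Skeletal muscle markers took 3.55% of the counts in ANKO 1, 0.597% in ANKO 2 and 0.0298% in ANKO 3, and 1.20%, 0.354% and 1.80% in controls 1 to 3. With the log2 of that share as a covariate, 5 of the 10 were past the threshold, all but Spp1 of the 6. The same 5 were past it without ANKO 1. The median log2 fold change was 1.6 with the covariate and 1.79 without ANKO 1, against 1.64 with all libraries and no covariate.

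Levels of different genes were compared per length, as CPM per kilobase of merged exon. The highest control means were those of Cd9 (32.6 ± 14.2, SD, n = 3), Lgals3 (29.6 ± 4.53), Tyrobp (27.7 ± 1.80) and Cd63 (23.2 ± 2.80). Libraries of Cd9 overlapped with those of Lgals3, and those of Lgals3 with those of Tyrobp, so the order of these is not resolved, whereas Tyrobp lay above Cd63 in every library. Itgax followed at 3.13 ± 0.444 and Gpnmb at 1.29 ± 0.285, each separate from its neighbours. Spp1 (0.643 ± 0.230), Trem2 (0.259 ± 0.125), Atp6v0d2 (0.174 ± 0.0744) and Mmp12 (0.133 ± 0.0429) were the rarest. Spp1 was separate from Trem2, while Trem2 overlapped with Atp6v0d2 and Atp6v0d2 with Mmp12.

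In ANKO fat the order changed at both ends. Lgals3 came first at 89.1 ± 26.7 CPM per kilobase, above every library of the next gene, Tyrobp (41.2 ± 6.92), which overlapped with Cd9 (36.5 ± 5.63), as Cd9 did with Cd63 (31.5 ± 5.12). Gpnmb, at 12.5 ± 5.35, passed Itgax (4.35 ± 1.04) with no overlap. Atp6v0d2 (3.34 ± 2.28), Mmp12 (2.76 ± 1.73), Spp1 (2.06 ± 0.344) and Trem2 (1.89 ± 0.957) lay close together, each overlapping with the next, and Atp6v0d2 also with Itgax. With the length of the longest transcript in place of merged exons Mmp12 moved 1 place up in both groups, and Atp6v0d2 1 place down, and Cd9 passed Tyrobp in ANKO.

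**Figure D2:**
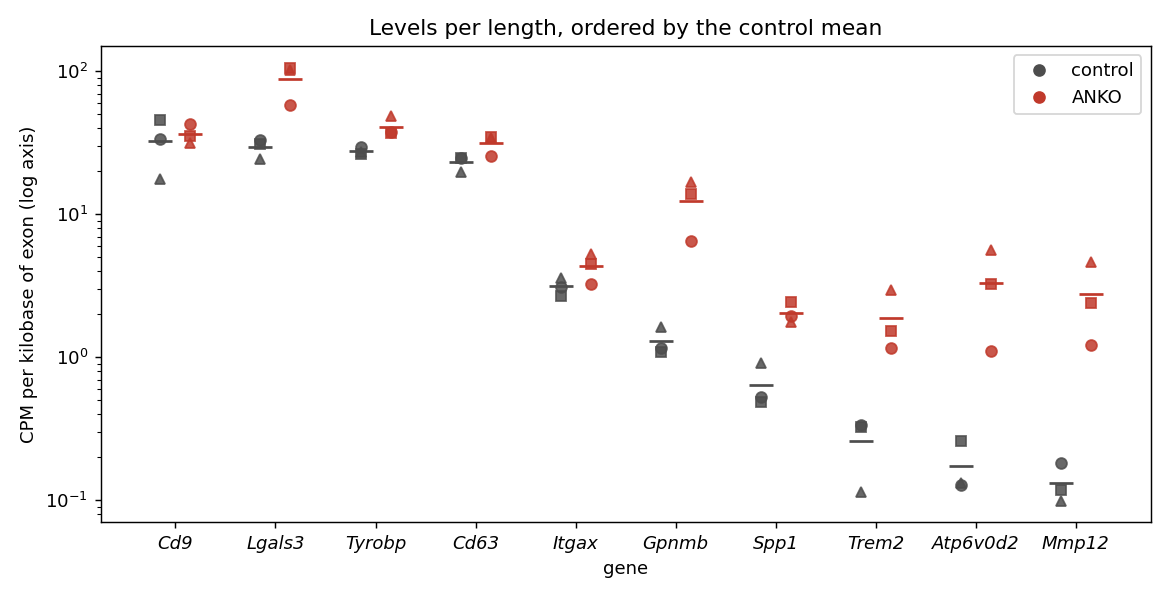
Levels of the 10 genes in CPM per kilobase of merged exon (log axis), ordered by the control mean, with 1 point per library and a line at each group mean. Cd9, Lgals3, Tyrobp and Cd63 sit between 17.8 and 46.0 in the controls, and Mmp12, Atp6v0d2 and Trem2 below 0.34.

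General macrophage markers gave a reference for the size of these differences. The summed level of 17 such markers, of which Lyz2, Laptm5 and Csf1r made up 18.7%, 18.1% and 10.9%, was 1267, 1234 and 1192 CPM in the controls and 1403, 1452 and 1824 CPM in ANKO, a ratio of means of 1.27. Set against that sum, 4 genes were still many times higher in ANKO. Mmp12 had 0.779 ± 0.228 counts per 1000 macrophage-marker counts in controls and 12.3 ± 6.04 in ANKO (15.7-fold), Atp6v0d2 0.384 ± 0.163 and 5.55 ± 3.17 (14.5-fold), Gpnmb 6.88 ± 1.72 and 51.0 ± 17.9 (7.42-fold), and Trem2 1.03 ± 0.482 and 5.80 ± 2.04 (5.62-fold). Spp1 was 2.57-fold and Lgals3 2.38-fold higher on this scale. Tyrobp was 1.17-fold higher with separate groups (15.01 ± 0.737 and 17.6 ± 0.566). In CPM, however, Adgre1 (2.00-fold) and Cd68 (1.71-fold) of the 17 differed more than Tyrobp (1.49-fold). Itgax, Cd63 and Cd9 overlapped between the groups, with ratios of 1.09, 1.08 and 0.911.

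**Figure D3:**
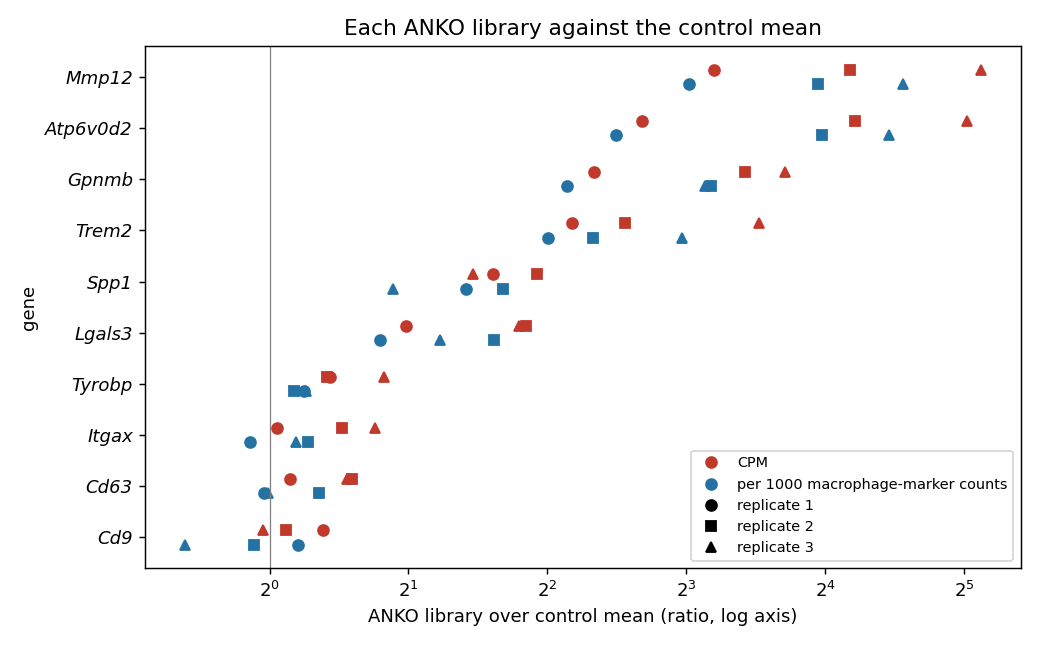
Each ANKO library divided by the control mean (ratio, log axis), as CPM (red) and per 1000 counts of 17 general macrophage markers (blue), with 1 symbol per ANKO replicate. Mmp12, Atp6v0d2, Gpnmb and Trem2 lie to the right of the line at 1 on both scales, and Itgax, Cd63 and Cd9 lie around it once set against the markers.

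Of the 17 general markers, 2 rose over all genes (7 by DESeq2, 0 without control 2) and none fell, with 14 positive and a median log2 fold change of 0.44. Adgre1, which encodes the F4/80 antigen, rose from 20.4 ± 0.444 to 40.9 ± 6.80 CPM (log2 fold change 1.00, edgeR adjusted p = 0.0119), and of the 6 leave-one-out fits only that without control 2 ended the call. The lysosomal protease Lgmn rose from 50.4 ± 6.02 to 82.8 ± 11.9 CPM (log2 fold change 0.72, edgeR adjusted p = 0.0405), a call that held in the leave-one-out fit without ANKO 1 and was lost without any other library. Of 14 markers of resident, perivascular macrophages 1 rose, the scavenger receptor Stab1 (152 ± 10.1 to 210 ± 8.28 CPM, log2 fold change 0.47, edgeR adjusted p = 0.0425), and its call was lost whichever library was left out. None of 8 monocyte markers was past the threshold in the main edgeR fit (all libraries, TMM scaling, low-count filter) or by limma-voom. In the main fit 3 had an unadjusted p under 0.05. DESeq2 called 1 lower, as did edgeR without control 2, while edgeR without ANKO 2 called 1 higher. The smallest p of the 8 was that of Hp, which fat cells also make (200.5 ± 75.7 and 88.6 ± 5.59 CPM, edgeR adjusted p = 0.0968).

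Most partners of TREM2 and TYROBP were not past the threshold. Of 16 tested genes of related receptors, adaptors, kinases, the ligand Apoe and Ms4a proteins, 1 rose (2 by DESeq2), Ms4a7, a membrane protein of macrophages (4.64 ± 1.08 to 12.1 ± 1.71 CPM, log2 fold change 1.38, edgeR adjusted p = 0.0212). That call did not survive leaving out control 2, control 3, ANKO 2 or ANKO 3, nor the muscle covariate or the replicate block (which adds replicate number to the model). The median of these 16 was 0.11. Of 12 leukocyte integrins and osteopontin receptors none was past the threshold by edgeR, DESeq2 or limma-voom, 1 had an unadjusted p under 0.05 in edgeR, and the median was 0.13. That 1 was Cd44, a receptor of osteopontin, at 54.3 ± 4.04 and 72.5 ± 11.1 CPM (edgeR adjusted p = 0.173).

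Other markers reported for lipid-associated or disease-associated macrophages were mixed. Of 24 tested 3 rose and none fell, with 16 positive and a median of 0.34. The 3 became 7 by DESeq2, 6 without ANKO 1, 2 without ANKO 2 and 0 without any other single library. Lipa, the lysosomal acid lipase, rose from 49.3 ± 3.20 to 115.9 ± 27.7 CPM (log2 fold change 1.23, edgeR adjusted p = 0.0205). Ctsz, a lysosomal cathepsin, rose from 101 ± 5.80 to 193 ± 37.9 CPM (log2 fold change 0.93, edgeR adjusted p = 0.0247). The lipid droplet coat gene Plin2 rose from 159 ± 17.5 to 642 ± 236 CPM (log2 fold change 2.01, edgeR adjusted p = 0.0234). The calls of Lipa and Ctsz were kept only in the leave-one-out fit without ANKO 1, and that of Plin2 without ANKO 1 or without ANKO 2. The Plin2 call was also lost with no low-count filter, the replicate block and the muscle covariate. Several genes of this list, such as Fabp4, Lpl, Cd36 and Plin2, are also made by fat cells, and 4 of 12 adipocyte markers fell with none that rose (median log2 fold change -0.78), Acvr1c, Car3 and Adipoq with the smallest p. The 4 became 6 by DESeq2, 2 without control 2 and 1 without ANKO 3, and Adipoq was lost without control 2, control 3 or ANKO 3. The part of fat cells in these levels was not tested. Of 16 genes of lipid uptake and efflux 1 rose and none fell (3 and 1 by DESeq2). It was the phospholipid transfer protein Pltp (71.4 ± 7.57 to 113.6 ± 6.66 CPM, log2 fold change 0.67, edgeR adjusted p = 0.0179, lost without control 1, control 3, ANKO 2 or ANKO 3), and the median was 0.00.

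Relatives of Atp6v0d2 differed far less than it did. Of 20 other subunits of the proton pump 1 rose, Atp6v1g1 (39.4 ± 2.26 to 57.2 ± 6.31 CPM, log2 fold change 0.54, edgeR adjusted p = 0.0499), lost whichever library was left out. DESeq2 called 6 higher, and 4 were higher without ANKO 1. Their log2 fold changes were positive for 19 of 20, against 50.1% of all features, and 11 had all ANKO libraries above all controls, against 9.19%, with a median of 0.36 and a highest value of 0.86 beside 4.25 for Atp6v0d2. The 13 genes of the MiT/TFE transcription factors, which drive lysosome genes, and their partners were all positive, with a median of 0.23. None was past the threshold in the main edgeR fit or by limma-voom, and 5 were by DESeq2 (6 at an unadjusted p under 0.05 in the main fit). In other edgeR fits 1 was higher with RLE scaling, 2 with upper-quartile scaling, 3 with no low-count filter and 1 without ANKO 1. Flcn, a regulator of these factors, had the smallest p (58.4 ± 5.41 and 82.1 ± 5.13 CPM, edgeR adjusted p = 0.0501). Of 11 tested genes of osteoclast-type fusion and resorption, a programme in which Atp6v0d2 also takes part, 1 fell and none rose, while DESeq2 called 2 higher. Of the 11, 8 were positive, 4 had all ANKO libraries above all controls and 2 had all below. An unadjusted p under 0.05, in either direction, was found for 6, and the median log2 fold change was 0.17. The cell fusion genes Dcstamp and Ocstamp were too low to be tested and are named after their values were seen. Dcstamp was at 0 in all controls and at 0.588, 1.386 and 0.325 CPM in ANKO, and Ocstamp at 0.175, 0 and 0.309 CPM in controls and 0.462, 0.650 and 0.836 CPM in ANKO. The gene that fell was Acp5, the tartrate-resistant acid phosphatase, with 189 ± 11.2 CPM in controls and 86.7 ± 8.21 CPM in ANKO (log2 fold change -1.13, edgeR adjusted p = 0.00352) and a call in all 6 leave-one-out fits.

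None of 21 tetraspanins and partners was past the threshold in the main edgeR fit or by limma-voom, while DESeq2 gave 1 higher and 1 lower. In edgeR 1 was higher with no low-count filter and 1 without ANKO 1. In the main fit 5 of the 21 had an unadjusted p under 0.05, and the median was 0.01. Tspan4 had the smallest p (34.03 ± 1.64 and 52.2 ± 8.70 CPM, edgeR adjusted p = 0.064). Of 7 other galectins and the galectin-3-binding protein Lgals3bp, 1 fell and none rose. Lgals12, a galectin of fat cell lipid droplets, fell from 181 ± 41.3 to 56.4 ± 13.7 CPM (log2 fold change -1.68, edgeR adjusted p = 0.0237), lost without control 2 or ANKO 3 and with the muscle covariate, so that Lgals3 and Lgals12 pointed in opposite directions in every fit run. None of 15 other matrix metalloproteinases and inhibitors was past the threshold in the main edgeR fit or by limma-voom, and DESeq2 gave 1 higher and 1 lower. With no low-count filter edgeR called 1 lower. In the main fit 8 of the 15 had an unadjusted p under 0.05, and the median was 0.31. Timp4 had the smallest p (30.7 ± 2.26 and 18.8 ± 4.41 CPM, edgeR adjusted p = 0.113).

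**Figure D4:**
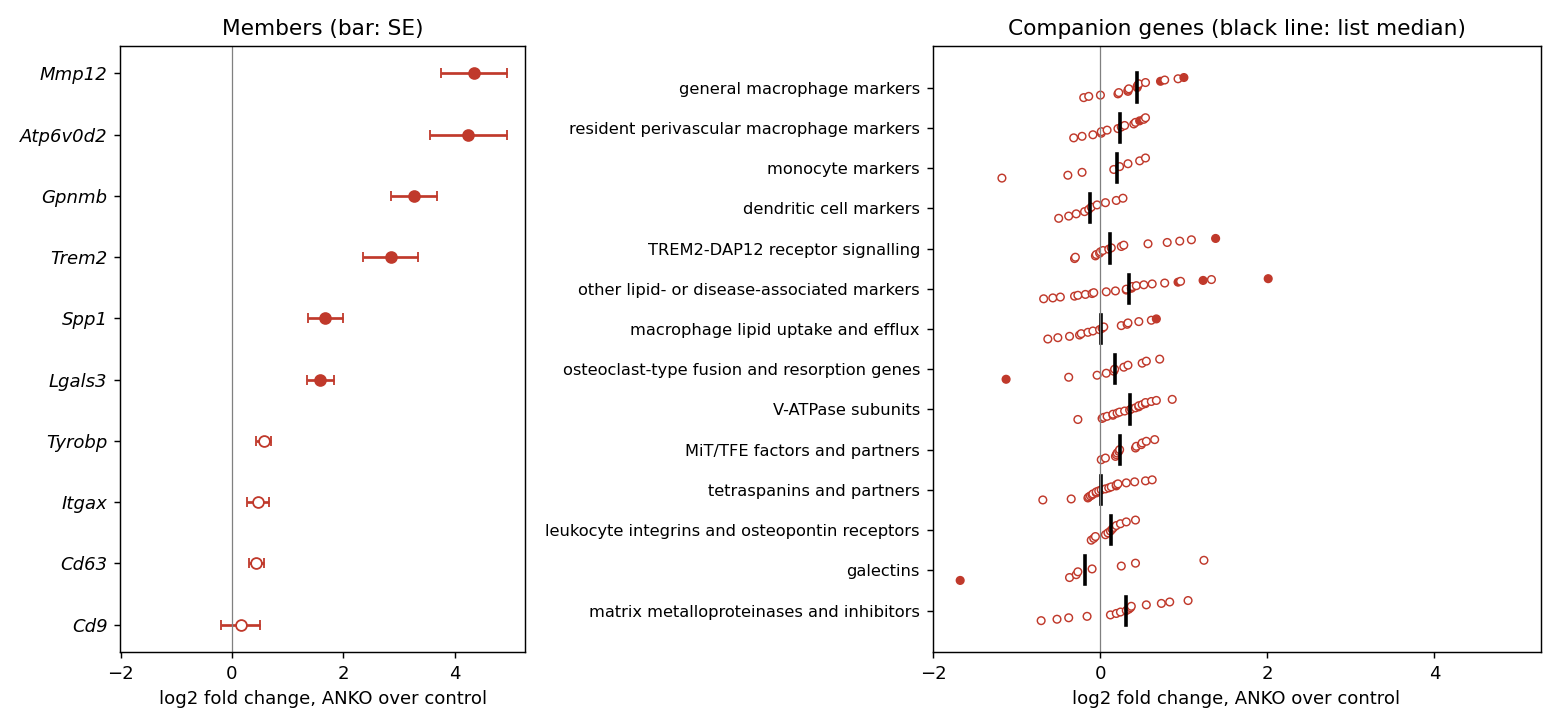
Log2 fold changes, ANKO over control, of the 10 genes (left, bars are SE) and of the tested genes of 14 companion lists (right, 1 point per gene, black lines at list medians). Filled points were past an adjusted p of 0.05 in the fit over all genes. Members reach 4.35, and the highest companion gene shown, Plin2, reaches 2.01.

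Markers of other cells that could carry these genes gave the following values. GPNMB is also a protein of pigment cells, and of 8 melanocyte markers Tyr, Tyrp1, Slc45a2 and Oca2 had at most 8 counts in any library and Mlana at most 25. Of the 8, 3 were tested and none was past the threshold by edgeR or DESeq2 (0 at an unadjusted p under 0.05 by edgeR). Pmel, with the smallest p, was detected in every library, at 5.90 to 8.97 CPM in controls and 5.28 to 6.27 CPM in ANKO (edgeR adjusted p = 0.525). The summed level of the 8, mostly Sox10, was 22.5 to 48.0 CPM in controls and 43.2 to 59.0 CPM in ANKO. Sox10 is also in the Schwann cell list, so this sum is not a level of melanocytes alone. It stood at 37.3, 41.2 and 12.2 CPM in the controls and 53.4, 43.9 and 35.9 CPM in ANKO. Mast cell markers rose in 4 of 6 tested genes, with a median of 1.24, and none fell. Leaving out control 2 reduced these to 1, and leaving out ANKO 2 or ANKO 3 to 2. Mcpt4, Cma1 and Tpsb2 had the smallest p, and Mcpt4 rose from 8.53 ± 1.46 to 23.0 ± 2.06 CPM (log2 fold change 1.43, edgeR adjusted p = 0.00717). The summed level of the 8 mast cell markers, mostly Kit, was 69.3 to 137 CPM in controls and 153 to 209 CPM in ANKO. Kit itself overlapped between the groups, at 102.7, 108.1 and 42.8 CPM in the controls and 128.7, 136.7 and 82.0 CPM in ANKO (edgeR adjusted p = 0.743). The part of mast cells in the 10 genes was not tested. None of 15 T, NK and B cell markers was past the threshold by edgeR, DESeq2 or limma-voom (2 at an unadjusted p under 0.05 in edgeR), and 1 of the 15 was positive, with a median of -0.23. Of 10 neutrophil markers 4 were tested and none was past the threshold by edgeR, DESeq2 or limma-voom (1 at an unadjusted p under 0.05 in edgeR). Csf3r reached 210 counts, Cxcr2 72 and Elane 51, while S100a8, S100a9 and Ly6g had at most 16. No endothelial, fibroblast, muscle, epithelial or Schwann cell marker was past the threshold in the main edgeR fit or by limma-voom. DESeq2 gave 2 fibroblast genes that were higher. Of the fibroblast genes, Dcn was also past it by edgeR with upper-quartile scaling and with no low-count filter. In the main fit 2, 5, 0, 0 and 1 markers of these cell types, in the order named, had an unadjusted p under 0.05.

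Other genes followed the same pattern over the 6 libraries. Likeness was the correlation of a gene's log2 CPM with the mean standardised level of the 10, among 13386 features of at least 2 CPM, of which 121 had r over 0.95. The closest were Runx1t1 (r = 0.996), Gna12 (0.996), Leprot (0.991), Atf3 (0.991), Lipa (0.991), Pea15a (0.990), Ifi44 (0.990) and Ero1l (0.989). Atf3, a stress-induced transcription factor, stood at 2.41, 2.42 and 1.597 CPM in the controls and 7.40, 11.04 and 11.2 CPM in ANKO. Ero1l, an oxidase of the endoplasmic reticulum, stood at 22.9, 23.9 and 19.1 CPM in the controls and 30.6, 41.6 and 43.1 CPM in ANKO. Leprot and Pea15a had the same shape with small differences, at log2 fold changes of 0.18 and 0.19. With group means removed the closest were Ywhaq, Myo7a, Gtpbp3, Spg11, Rraga, Rnf216, Serp1 and Hrh1, at r = 0.990 to 0.995, where 47 features exceeded 0.95. Fold changes of these 8 lay between -0.09 and 0.15 on the log2 scale. Over so few libraries high correlations can arise without any relation, more so with group means removed. Neither count over 0.95 was tested.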

How the data were processed

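RNA was sequenced from whole subcutaneous white fat of 3 control and 3 ANKO mice after ribosomal RNA depletion, per the labels' protocols. The authors deposited raw read counts per gene symbol, 1 column per mouse. STAR 2.0.4b, Subread and featureCounts 1.45 with GRCm38 are named in the submitters' processing notes, and the strand setting and annotation release are not given. Of 40757 lines 329 exact repeats were removed. Counts were filtered by filterByExpr (minimum count 10, total 15), scaled by TMM and tested with edgeR 4.0.16 in R 4.3.3 (quasi-likelihood, robust), adjusted by Benjamini-Hochberg over 19272 features at 0.05. SEs were taken as log2 fold change over root F. Likeness used a prior count of 2. The fit was tested on simulated data.

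The 10 genes and the 24 companion lists (321 genes, 320 in the table, 293 tested, Lilrb4a unmatched) were chosen with earlier results of these data known. Over these lists 13 genes rose and 6 fell. Counts of list genes at an unadjusted p under 0.05 stand without the share over all features and are not read further. Named genes were all members, the 3 called genes of smallest p in each list (or the 1 of smallest p), and the 8 most alike by either measure. Alternatives were DESeq2 1.42.0, limma-voom (limma 3.58.1), scaling by RLE or by the upper quartile, other filters, a replicate block, a muscle covariate and leaving out each library. The median log2 fold change over all features moved between -0.005 and 0.010.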

Additional observations from a re-analysis of the deposited data

How the results depend on the processing

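Counts of genes past the adjusted threshold moved with test, filter and library. Among all genes 94 were higher and 212 lower. DESeq2 gave 388 and 498, limma-voom 62 higher, no low-count filter 167 higher, and the muscle covariate 50 and 111. Of the members, 6 became 0 with limma-voom and 1 with no low-count filter. Of the companion genes, 13 higher became 41 with DESeq2 and 23 with no low-count filter, and 6 lower became 12 with DESeq2. Leaving out 1 library gave 20 to 107 higher and 55 to 221 lower among all genes, 0 to 5 of the members, and 2 to 20 higher and 2 to 6 lower among companion genes. With 2 mice in a group fewer samples enter these fits. The replicate numbers are not stated to mark pairs, and same-numbered libraries did not deviate together (r = 0.115, -0.049 and -0.062 over 16879 genes). With the numbers as a replicate block, 62 genes were higher, 2 of the members stayed past the threshold and 7 companion genes were higher.

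Of 57 named genes refitted 798 times, 648 refits kept direction and call, 119 lost the call, 23 gained it and 8 turned. Leaving out 1 library, Cd9 ranged from -0.12 to 0.49, Mb from -2.57 to 0.18, Ywhaq from -0.02 to 0.07, Myo7a from -0.09 to 0.05, Gtpbp3 from -0.00 to 0.12 and Hrh1 from -0.16 to 0.06 on the log2 scale, and Ywhaq was -0.01 with the muscle covariate. Low counts limit the control levels of Atp6v0d2, Mmp12, Trem2 and Spp1.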
